A study of Mus musculus with 12 samples.

Results

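The effect of losing Asxl2 was examined in mouse bone marrow cells that had been given RANKL, the cytokine that drives osteoclast formation. The comparison took the 6 RANKL-treated RNA-seq libraries of the study's 12, by their labelled genotype and treatment: 3 libraries titled ASXl2flox OC (flox) and 3 titled ASXL2LysM OC (KO, the LysM Cre positive genotype). All 13030 genes of the 41388 in the files that had enough counts to be tested were compared. Cells of C57BL/6 mice were grown for 5 days in alpha MEM with 10% FBS, and after replating were given 2% M-CSF with 50 ng/ml RANKL for 2 days. The other 6 libraries (BMM, bone marrow macrophages) came from cells given M-CSF alone. The title of the series is about myeloid ASXL2, diet-induced obesity and energy expenditure, and its design text names macrophages and osteoclasts of the 2 genotypes.

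LysM Cre is expressed from the lysozyme gene Lyz2, which is active in macrophages, neutrophils and their precursors, so that cells of other lineages in the same culture would keep an intact gene. No group carried Cre with intact Asxl2, and the labels do not say whether flox mice lacked Cre altogether. What Cre itself, or its insertion into Lyz2, does to these cells cannot be told apart from what the loss of Asxl2 does. The labels give neither the age or sex of the mice nor the number of mice behind a library, so p-values are measured against the spread between libraries, and that spread may be technical.

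ASXL2 is a chromatin protein of the ASXL family that binds and activates the deubiquitinase BAP1, which removes ubiquitin from histone H2A. RANKL binds its receptor RANK on macrophage-like precursors and acts through NF-kB and AP-1, with co-stimulation through receptors that carry ITAM motifs. These inputs induce NFATc1, the master transcription factor of osteoclasts, which turns on genes for cell fusion, acid secretion and bone-degrading enzymes, while repressors such as Blimp-1 (Prdm1) lower the factors that hold the cells in the macrophage state.

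The 6 libraries held 18489873 to 21042792 counts. Replicates were close, with a biological coefficient of variation of 1.85% in flox and 1.86% in KO. On the principal components of these 6 libraries the first held 66.2% of the variance and separated the genotypes, and the second set KO library 1 apart from the other two KO libraries. Values below are in CPM (a gene's count divided by the size of its library and its TMM factor), given in the order of libraries 1, 2 and 3. Sums over a gene list were scaled by library size alone, without the TMM factor, so they are not on quite the same scale as single genes. Changes are log2 fold changes of KO against flox from edgeR, with their standard error (SE), and a gene was called at an adjusted p under 0.05.

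Asxl2 itself (chromosome 12, 3426857 to 3506852, GRCm38) stood at 75.6, 73.6 and 71.03 CPM in the flox libraries and 15.1, 12.7 and 13.4 CPM in the KO libraries. It fell 5.35-fold, and the groups did not overlap (a log2 fold change of -2.42 with an SE of 0.053, edgeR adjusted p = 3.14e-36). The labels do not name the floxed exons, and counts were summed over all exons, so reads from the remaining exons still count. Lyz2 (chromosome 10, 117277334 to 117282274), which hosts the Cre, stood at 10540.0, 10494 and 10834 CPM in flox and 11745, 11567 and 11685 in KO, a rise of 0.14 (edgeR adjusted p = 4.33e-06). Of 12 tested genes of the ASXL and BAP1 complex list, 4 were called higher and 1, Asxl2, lower. Asxl1, a relative of Asxl2 that also binds BAP1, rose from 123 ± 2.01 to 141 ± 4.83 CPM (SD, n = 3; log2 fold change 0.20), and Bap1, named after its values were seen, stood at 87.2 and 88.7 CPM (0.02, not called).

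The label osteoclast was checked against 10 defining markers. In flox libraries RANKL cultures had more transcript than M-CSF cultures of Nfatc1 (350.1 against 99.3 CPM), Acp5 (132 against 28.9), Ctsk (83.4 against 30.4), Mmp9 (35.6 against 2.06), Dcstamp (57.6 against 14.8), Ocstamp (12.2 against 0.5203) and Atp6v0d2 (79.4 against 57.3). The other 3 markers were low or nearly absent. Calcr, the calcitonin receptor, had 1 count over the 3 flox libraries, Oscar, an ITAM-linked co-receptor, had 7, and Itgb3, the integrin beta 3 chain, stood at 1.45 CPM. The cells are therefore called RANKL-treated cells below.

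With genotype, 2787 genes (21.4%) were called higher and 2595 (19.9%) lower in KO, 41.3% in all. Most changes were small: 78.8% of called genes changed less than 1.5-fold. A change of at least 2-fold was called upward for 195 genes (1.5%) and downward for 355 (2.72%), and the largest changes were falls. In 6679 genes (51.3%) the 3 flox and 3 KO libraries did not overlap. These shares are the background for the counts of each gene list below.

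**Figure D1:**
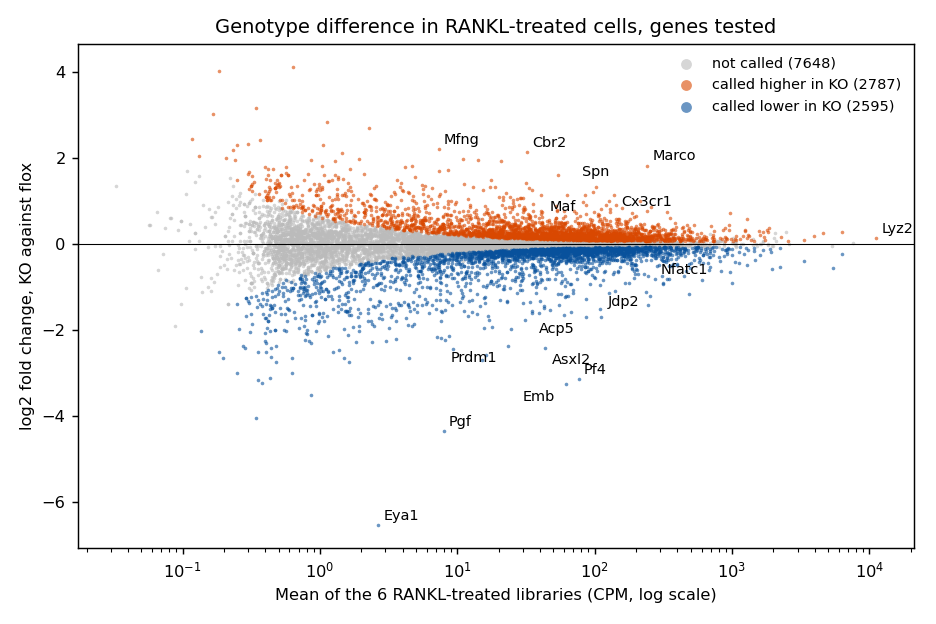
Each point is a gene tested in RANKL-treated cells. The x axis is its mean over the 6 libraries in CPM on a log scale, and the y axis is the log2 fold change of KO against flox. Orange points (2787) were called higher in KO, blue points (2595) lower, and gray points were not called, with Eya1, Pgf, Emb and Pf4 among the deepest falls and Marco and Cbr2 among the strongest rises.

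The transcription factors of osteoclast formation were mostly lower in KO cells. Of 27 tested, 20 were called lower, 2 higher and 5 were not called, with a median log2 fold change of -0.33 beside 0.006 over all genes tested. In M-CSF alone 19 were called lower and 3 higher (median -0.16). The difference between the 2 genotype effects was called above 0 for 10 and below 0 for 10. Nfatc1 stood at 352, 349.6 and 349 CPM in flox and 198, 194 and 201 in KO. It fell 1.77-fold (-0.82, SE 0.028, edgeR adjusted p = 1.36e-28), with no overlap between the groups. In M-CSF alone it went the other way, from 99.3 to 116 CPM (0.23), and the difference between the 2 genotype effects was called (-1.05, edgeR adjusted p = 1.09e-23).

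Jdp2, an AP-1 family factor that osteoclast formation needs in mice (chromosome 12, 85599105 to 85639878), stood at 161, 160.1 and 167 CPM in flox and 53.99, 58.6 and 57.8 in KO. All 3 KO libraries lay far below the flox libraries, a 2.87-fold fall (-1.52, SE 0.038, edgeR adjusted p = 6.80e-34). In M-CSF alone its level was 9.99 CPM in flox and 10.7 in KO, with no call. Prdm1 (chromosome 10, 44437177 to 44528501), the Blimp-1 repressor gene, stood at 38.6, 37.3 and 42.04 CPM in flox and 6.51, 7.96 and 8.28 in KO, a 5.17-fold fall (-2.37, SE 0.075, edgeR adjusted p = 1.11e-29). It fell in M-CSF alone as well, by less (-1.33), and the difference was called (-1.04, edgeR adjusted p = 1.63e-08).

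Other members of the list fell too. Bhlhe40, a basic helix-loop-helix repressor gene, went from 82.7, 85.6 and 85.9 to 36.8, 35.4 and 36.2 CPM (-1.23), and Egr2, an early growth response gene, from 15.6, 13.6 and 15.8 to 7.02, 6.58 and 6.87 CPM (-1.14). Of the AP-1 genes, Fosl1 went from 29.01, 27.3 and 31.4 to 15.01, 15.3 and 12.1 CPM (-1.05) and Fos from 559, 565 and 556 to 347, 335 and 312 CPM (-0.76). None of these 4 had overlapping groups. Fos and Fosl1 fell further in M-CSF alone (-1.42 and -1.73), where Fos stood at 116 CPM in flox against 559.8 with RANKL. The 2 members called higher, named after their values were seen, were Bhlhe41 (0.61) and Rbpj (0.18), a repressor of osteoclast formation in inflammation.

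Promoter sequences of 4 strongly changed genes are shown as examples of windows that hold a match to a short motif of AP-1, PU.1 (a factor of myeloid cells) or the E-box factors, chosen after the matches were seen: Prdm1 and Notch4 fell, and Padi4 and Cd300lf rose. Each window runs from 250 bases before to 50 bases after the start of the gene in RefSeq (GRCm38.p6), 5′ to 3′ on the gene's strand, with the motif matches in capitals. Where RefSeq lists several windows for a gene, the first listed was used, and that of Prdm1 lies inside the span of the counted gene.
Prdm1 (chr10:44458699-44458998, minus strand): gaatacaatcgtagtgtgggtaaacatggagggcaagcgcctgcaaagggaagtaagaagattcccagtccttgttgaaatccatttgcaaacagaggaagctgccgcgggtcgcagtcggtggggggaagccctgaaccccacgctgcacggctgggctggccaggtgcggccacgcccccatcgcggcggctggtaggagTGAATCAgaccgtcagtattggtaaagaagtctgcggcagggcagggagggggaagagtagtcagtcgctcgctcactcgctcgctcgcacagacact
Notch4 (chr17:34564045-34564344, plus strand): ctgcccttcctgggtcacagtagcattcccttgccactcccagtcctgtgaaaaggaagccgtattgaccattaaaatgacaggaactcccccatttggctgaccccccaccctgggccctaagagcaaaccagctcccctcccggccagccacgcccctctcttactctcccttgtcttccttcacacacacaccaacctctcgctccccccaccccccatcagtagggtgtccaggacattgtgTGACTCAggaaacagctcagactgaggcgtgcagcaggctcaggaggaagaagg
Padi4 (chr4:140774154-140774453, minus strand): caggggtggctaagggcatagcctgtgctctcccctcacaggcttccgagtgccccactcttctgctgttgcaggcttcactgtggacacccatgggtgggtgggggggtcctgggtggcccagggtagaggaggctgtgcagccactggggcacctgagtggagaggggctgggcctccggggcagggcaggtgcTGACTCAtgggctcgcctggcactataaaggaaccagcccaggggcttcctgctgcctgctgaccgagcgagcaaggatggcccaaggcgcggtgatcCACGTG
Cd300lf (chr11:115133943-115134242, minus strand): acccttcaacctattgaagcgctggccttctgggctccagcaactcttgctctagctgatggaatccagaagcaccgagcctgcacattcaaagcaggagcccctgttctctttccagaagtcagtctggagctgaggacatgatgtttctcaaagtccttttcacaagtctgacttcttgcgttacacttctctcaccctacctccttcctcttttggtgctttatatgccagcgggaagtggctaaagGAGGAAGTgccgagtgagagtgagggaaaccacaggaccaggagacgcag
The match in Prdm1 begins at -48 and that in Notch4 at -4, both of the AP-1 form TGANTCA. In Padi4 an AP-1 match begins at -54 and an E-box (CACGTG) at 45, and in Cd300lf a match to the PU.1 form GAGGAAGT begins at 1. Windows were found for 9623 of the 13030 tested genes and searched on both strands. An AP-1 match was present in 4.89% of the windows of all tested genes, in 8.66% of the 254 windows of genes called at least 2-fold lower and in 9.66% of the 145 of genes called at least 2-fold higher. A PU.1 match was present in 3.48%, 3.94% and 8.97% of the same windows, and an E-box in 10.4%, 10.2% and 4.14%. The G and C share of the windows was 60.8%, 59.3% and 58.3%. These are descriptions of letters in a window, not of binding.

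Genes of precursor fusion were mostly lower too. Of 21 tested, 13 were called lower, 4 higher and 4 were not called (median -0.52). In M-CSF alone 15 were called lower and 2 higher (median -0.55), and the difference was not called for 12. Dcstamp, a membrane protein that fusion requires, went from 56.7, 56.05 and 60.1 CPM in flox to 23, 21.7 and 23.9 in KO (-1.33, SE 0.053, edgeR adjusted p = 3.83e-26). Its partner Ocstamp went from 11.9, 12 and 12.7 to 4.76, 6.28 and 5.57 CPM (-1.14), and Atp6v0d2, a proton pump subunit with a role in fusion, from 80.2, 76.9 and 81.1 to 29.7, 29.5 and 30.05 CPM (-1.42). Each of the 3 was lower in all KO libraries than in any flox library. Dcstamp and Atp6v0d2 also fell in M-CSF alone (-1.53 and -1.10), at lower levels. The tetraspanin gene Cd81 moved the other way, from 141, 142 and 144 to 278, 286 and 288 CPM (0.99).

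Among the acid and protease genes of bone resorption, 10 of 22 tested members were called lower, 7 higher and 5 were not called (median -0.03). In M-CSF alone 10 were called higher and 3 lower (median 0.06). The difference between the 2 genotype effects was called below 0 for 8 and above 0 for 1, beside 9.53% and 12.3% of all genes tested. Acp5 (chromosome 9, 22126731 to 22135746), the tartrate-resistant acid phosphatase by which osteoclasts are stained, stood at 129.8, 130.4 and 137 CPM in flox and 39.9, 40.3 and 42.3 in KO. It fell 3.24-fold (-1.70, SE 0.04, edgeR adjusted p = 2.86e-35) and by less in M-CSF alone (-0.51), a called difference (-1.19, edgeR adjusted p = 4.73e-18). Mmp14, a membrane collagenase, went from 120.0, 124 and 119 to 65.6, 62.6 and 62.4 CPM (-0.93), and Mmp9, the gelatinase of osteoclasts, from 35.2, 34.2 and 37.4 to 22.7, 22.2 and 20.9 (-0.70).

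The exchanger gene Slc9b2 went from 25.1, 26.5 and 24.5 to 13.8, 13.8 and 14.9 CPM (-0.84). Carbonic anhydrase Car2, which supplies protons for resorption, was at a low level, with 1.804, 1.43 and 1.41 CPM in flox and 0.768, 0.544 and 0.602 in KO (-1.28). Ctsk, the collagen-degrading cathepsin, and Tcirg1, a proton pump subunit, were named after their values were seen. Ctsk went from 81.5, 81.97 and 86.6 to 62.4, 64.2 and 71.3 CPM (-0.34), a smaller fall than those above, against a rise of 0.24 in M-CSF alone. Tcirg1 went from 958, 929 and 889.7 to 696, 729 and 693 CPM (-0.39). The members called higher were led by Syt7 (0.78), a vesicle calcium sensor gene at 1.07 and 1.83 CPM whose call was lost in at least 1 alternative, and included the lysosomal membrane protein genes Lamp2 (0.40) and Lamp1 (0.27), chosen after their values were seen.

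The receptors and adaptors upstream of these genes went in both directions. Of 28 tested RANK and ITAM signalling genes, 9 were called higher, 9 lower and 10 were not called. Tnfrsf11a, the RANK receptor gene, stood at 289, 299 and 295 CPM in flox and 239.9, 239 and 247 in KO, a log2 fold change of -0.28 (edgeR adjusted p = 2.76e-05), less than in M-CSF alone (-0.65). The deepest fall on the list was that of Rcan1, a calcineurin regulator gene that is itself an NFAT target, from 123, 126 and 122 to 53.8, 48.6 and 49.3 CPM (-1.29). The activating receptor gene Sirpb1a rose from 2.301, 2.81 and 2.58 to 6.35, 4.35 and 5.02 CPM (1.03), a member of a family of near copies whose reads may not be assigned with certainty.

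Of the M-CSF receptor and Src adhesion genes, 16 of 34 were called lower, 9 higher and 9 were not called. Itgav, the integrin alpha v chain, went from 402, 424 and 402 to 222, 209 and 216 CPM (-0.92), and Csf2rb, the shared chain of the GM-CSF receptor, from 287, 284 and 285 to 172, 177 and 175 (-0.71). The actin regulator gene Cttn rose from 8.93, 9.19 and 11.6 to 24.5, 25.2 and 25.2 CPM (1.33). Csf1, which encodes M-CSF, fell from 14.3, 12.7 and 13.2 to 5.23, 4.799 and 4.97 CPM (-1.42), in cultures to which M-CSF was added.

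Negative regulators of osteoclast formation went in both directions, with 8 of 22 called higher, 9 lower and 5 not called. Socs3, the inhibitor of cytokine signalling, stood at 38.1, 38.1 and 40.9 CPM in flox and 10.7, 9.498 and 9.43 in KO, a 3.96-fold fall (-1.98, SE 0.066, edgeR adjusted p = 4.64e-29). Tnfaip3, an inhibitor of NF-kB, went from 57.8, 59.7 and 54.3 to 32.9, 33.8 and 30.9 CPM (-0.81). Irf8, a macrophage factor that restrains NFATc1, rose from 31.2, 30.5 and 31.8 to 47.2, 45.8 and 47.95 CPM (0.59, edgeR adjusted p = 4.64e-16), and more than in M-CSF alone (0.08; difference 0.51, edgeR adjusted p = 1.04e-10).

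Macrophage and monocyte markers were more often called higher than lower. Of 21 tested macrophage markers, 12 were called higher, 4 lower and 5 were not called (median 0.12), and all 8 tested monocyte markers of 12 listed were called higher (median 1.01). The sum of the macrophage list ranged from 19346 to 19718 CPM in flox and from 21214 to 21436 in KO, and that of the monocyte list from 139.6 to 144 and from 276 to 283. Lyz2 made up most of the macrophage sum. In M-CSF alone 5 of the 21 macrophage markers were called higher and 15 lower, and the difference between the 2 genotype effects was called above 0 for 17 and below 0 for 1, where 12.3% and 9.53% of all genes were so called. In bulk libraries, more cells of a type and more RNA of a gene per cell cannot be told apart, here and for the falls below.

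Marco (chromosome 1, 120474538 to 120505024), a scavenger receptor of macrophages, stood at 104, 107 and 109.8 CPM in flox and 374, 390.1 and 369 in KO. It rose 3.54-fold (1.82, SE 0.031, edgeR adjusted p = 3.21e-41), and by 1.70 in M-CSF alone (difference 0.13, edgeR adjusted p = 0.0271). Maf (chromosome 8, 115682942 to 115707794), a transcription factor of resident macrophages, stood at 52.4, 54.5 and 54.1 CPM in flox and 119, 114 and 120.2 in KO (1.13, edgeR adjusted p = 8.05e-30). In M-CSF alone Maf stood much higher, at 805 CPM in flox and 852 in KO (0.08), and the difference was called (1.05, edgeR adjusted p = 2.88e-23).

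The fractalkine receptor gene Cx3cr1 stood at 86.9, 86.02 and 86.5 CPM in flox and 188, 191 and 189.6 in KO, a rise of 1.13, against a fall of 0.24 in M-CSF alone. Mertk, a receptor for dying cells, rose from 17.4, 16.8 and 16.8 to 35.1, 33.3 and 34.5 CPM (1.01), and its ligand Gas6 from 60.2, 62.2 and 59.3 to 114, 111 and 112 (0.90). For each of these 3 the groups did not overlap. Mrc1, the mannose receptor gene, went against the list, from 144, 144 and 143 to 88.6, 91.9 and 94.7 CPM (-0.65). The core markers Cd68 (0.06) and Adgre1 (-0.05), named after their values were seen, were not called.

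Among the monocyte markers, Spn (chromosome 7, 127132232 to 127137823), the leukosialin gene, stood at 57.1, 58.1 and 59.8 CPM in flox and 146, 146 and 148 in KO, a 2.51-fold rise (1.33, edgeR adjusted p = 7.82e-31). Ccr2, the receptor by which monocytes follow CCL2, rose from 13.9, 14.7 and 13.01 to 28.8, 32.2 and 33.2 CPM (1.18), and the coagulation factor gene F13a1 from 10.2, 8.69 and 10.9 to 17.4, 17.2 and 17.2 (0.80). The proteoglycan gene Vcan rose from 44.2, 40.4 and 40.7 to 54.9, 53.03 and 56.6 CPM (0.39) and fell in M-CSF alone (-0.82). The other listed markers, Plac8, Ace and Ly6c1 among them, had too few counts to be tested. Over the 3 libraries of a group Plac8 had 17 counts in flox and 3 in KO.

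**Figure D2:**
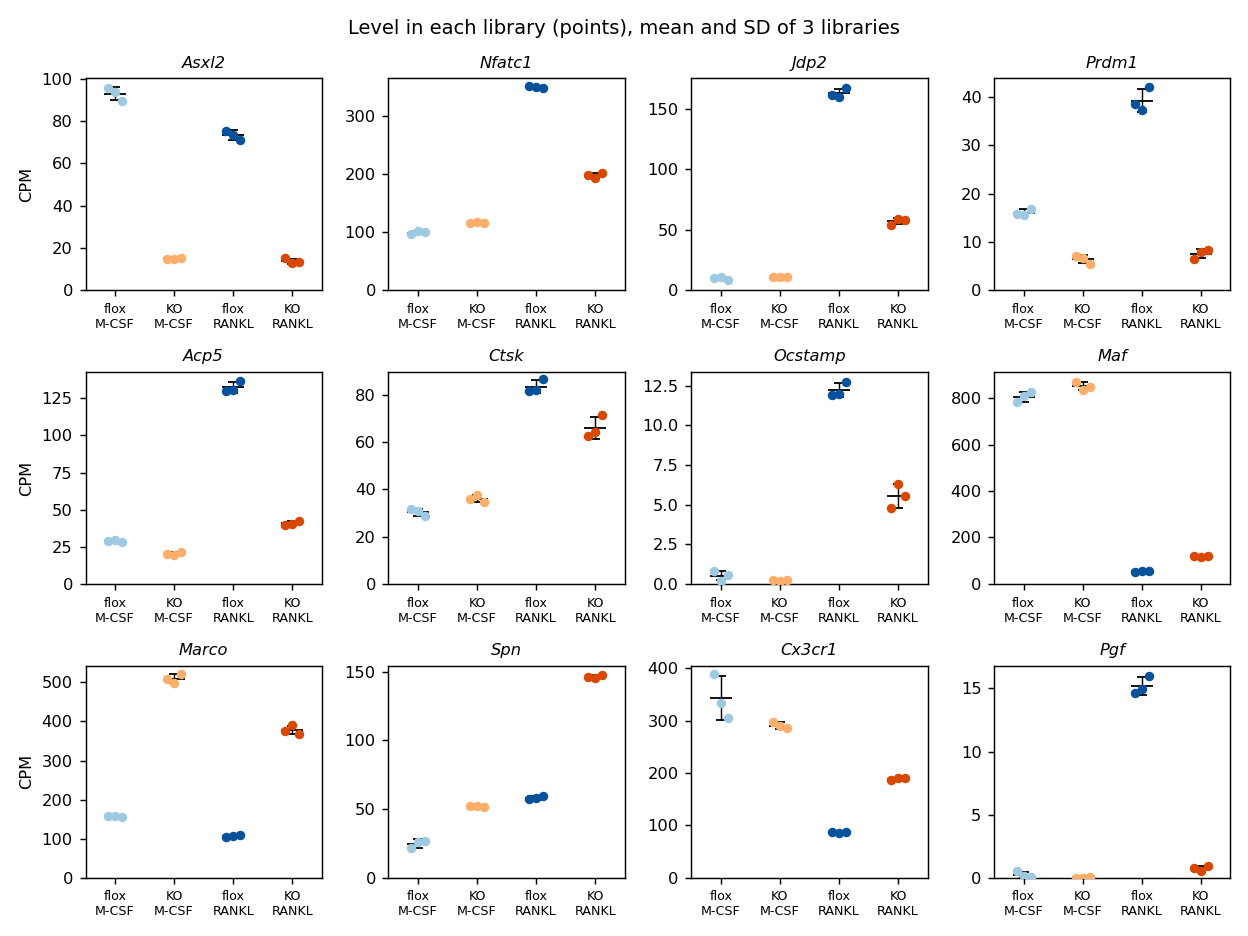
Each panel shows 1 gene in CPM from 0. Points are libraries, and the bars give the mean and SD of 3 libraries, for flox and KO cells in M-CSF alone (light) and with RANKL (dark). With RANKL, Nfatc1, Jdp2, Prdm1, Acp5, Ctsk, Ocstamp and Pgf are lower in KO than in flox, and Maf, Marco, Spn and Cx3cr1 are higher, without overlap. A lack of overlap was required by the rule of largest changes, which Jdp2, Prdm1, Acp5, Pgf, Maf, Marco, Spn and Cx3cr1 met.

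Across all named gene models, the strongest rises among genes of at least 5 CPM were those of Mfng and Cbr2. Mfng, a glycosyltransferase that modifies Notch, went from 3.11, 2.22 and 2.44 to 12.6, 11.3 and 12.2 CPM (2.20, SE 0.11, edgeR adjusted p = 1.17e-21). The carbonyl reductase gene Cbr2 went from 12.9, 10.6 and 12.1 to 52.1, 54.8 and 49.6 CPM (2.13). Padi4, which citrullinates histones, went from 5.098, 4.25 and 4.09 to 17.98, 17.6 and 17.1 CPM (1.96). In M-CSF alone Mfng (1.82), Cbr2 (1.59) and Padi4 (1.76) rose as well, and the difference was called for Cbr2 only (0.54).

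The sialic acid receptor gene Cd33 rose from 6, 6.07 and 5.55 to 22.1, 23.2 and 22.5 CPM (1.94), the inhibitory receptor gene Cd300lf from 3.83, 3.11 and 3.46 to 10.5, 12.5 and 10.8 (1.70), and the tetraspanin gene Tspan32 from 9.11, 8.49 and 8.18 to 32.4, 32.9 and 33.1 (1.93). The groups of all 6 genes were far apart and did not overlap, which the rule for naming them required. Mcemp1 (1.82), Zfp618 (1.79), Lyl1 (1.71), Angptl7 (1.56), Rragd (1.48) and Ryk (1.48) followed, all under 30 CPM. Among genes of at least 100 CPM in KO, Dmpk (1.21), Tgm2 (0.998) and Lsp1 (0.97) rose next to Marco, Spn, Maf, Cx3cr1 and Cd81.

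Of the scavenger, lectin and Fc receptor genes, 16 of 30 were called higher, 8 lower and 6 were not called (median 0.11). In M-CSF alone 4 were called higher and 16 lower, and the difference was called above 0 for 22 and below 0 for none. Beside Marco, Cd33 and Cd300lf, the DNA sensor gene Tlr9 rose from 3.16, 4 and 3.31 to 8.25, 6.93 and 8.18 CPM (1.16), while Clec7a, whose product binds beta-glucan, fell from 22.1, 21.3 and 22.8 to 8.197, 9.65 and 9.63 (-1.27). For 31.8% of the exonic bases of Clec7a another gene model overlaps, and counting ignored strand.

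Among genes of at least 5 CPM the deepest falls were those of Eya1, Pgf, Emb and Pf4. Eya1, a transcriptional coactivator and phosphatase, had 332 counts over the flox libraries and 3 over the KO libraries, a ratio of 104.7 (95% exact interval 35.5 to 510.5, counting error only). Pgf, placental growth factor, went from 14.6, 14.96 and 15.98 to 0.768, 0.544 and 0.903 CPM (-4.35, SE 0.16, edgeR adjusted p = 2.06e-25), and was nearly silent in M-CSF alone (0.223 CPM in flox). Emb, the membrane glycoprotein embigin, went from 109, 109 and 116 to 11.3, 11.3 and 12.04 CPM (-3.27, edgeR adjusted p = 1.15e-42), with 14.8% of its exonic bases shared with another gene model. Pf4, platelet factor 4, went from 138, 133 and 139.8 to 16.03, 15.04 and 15.3 CPM (-3.15). In M-CSF alone Eya1 had 234 counts in flox and 2 in KO, and Emb (-3.28) and Pf4 (-2.90) fell as well. For Eya1, Emb and Pf4 the difference between the conditions was not called.

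Plxna4, a semaphorin receptor gene, went from 25.4, 25.1 and 27.6 to 3.38, 4.01 and 4.61 CPM (-2.70) and stood at 1.703 CPM in flox without RANKL. The gene of the actin-severing protein scinderin, Scin, went from 7.398, 7.11 and 8.57 to 1.23, 1.14 and 1.304 CPM (-2.65). Cyp2s1 (-2.58), P2ry14 (-2.23), Notch4 (-2.22), Lox (-2.19), Cyp1b1 (-2.17) and Akap6 (-2.15) fell by similar amounts.

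Among genes of at least 100 CPM in flox, the choline transporter gene Slc44a1 went from 167, 166 and 175 to 52.6, 52.4 and 52.2 CPM (-1.70) and the urokinase gene Plau from 349, 362 and 362 to 138, 132 and 131 (-1.42). Emp2, a tetraspan membrane protein gene, went from 100.2, 99.7 and 104 to 33.8, 32.5 and 34.5 CPM (-1.59). In M-CSF alone Slc44a1 fell further (-2.10; difference 0.40, edgeR adjusted p = 7.09e-07) and Emp2 less (-0.73; difference -0.86, edgeR adjusted p = 6.20e-15). Plau fell there too (-1.08), and its difference was not called. The KO libraries of Slc44a1, Plau and Emp2 lay below the flox libraries without overlap, which the rule for naming them required.

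Markers of stromal cells and osteoblasts fell as a whole list beside these falls. All 18 tested of 26 listed were called lower (median -1.54), and their sum ranged from 296 to 299 CPM in flox and from 96.6 to 111 in KO. Col1a2, a chain of type I collagen, went from 50.2, 53.4 and 52.5 to 17.9, 16.1 and 18.8 CPM (-1.56), and Runx2, the osteoblast transcription factor gene, from 12.4, 12 and 10.9 to 3.23, 3.02 and 3.96 (-1.79). Sparc, a matrix protein of bone, went from 24.5, 24 and 27.8 to 7.27, 8.41 and 8.28 CPM (-1.67). The defining marker Bglap was at 0 in all 6 libraries, and Sp7, Alpl and Lepr had too few counts to be tested. The same 18 fell in M-CSF alone (median -1.58), and none of the differences between the 2 conditions was called. The part of such cells in the other falls, those of Lox and Csf1 among them, was not tested.

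Markers of other cell types were lower in KO where they were called, with 1 exception. Of the neutrophil and granulocyte precursor list 6 of 9 tested fell and 1 rose, with a sum of 80.7 to 84.9 CPM in flox and 44.0 to 47.3 in KO, most of it Mmp8 and Mmp9, and with Prtn3, Ctsg and Ly6g at 0. The member that rose, and the exception, was Csf3r. Of the megakaryocyte and platelet list 2 of 5 fell, Pf4 and Ppbp, with a sum of 150.4 to 155 CPM in flox and 24.7 to 24.9 in KO, nearly all of it Pf4, while Gp6 was at 0. Of the T and NK cell list only Il7r fell, from 81.1 to 41.1 CPM, with Cd3e, Ncr1 and Nkg7 at 0, and of the mast cell list only Gata2 (-1.60), with Fcer1a, Mcpt4 and Tpsb2 at 0. Dendritic cell (3 of 6), B cell (2 of 4), endothelial (2 of 5) and erythroid (Tfrc, 1 of 1) lists had called members only downward. Their sums ranged from 174 to 186 CPM in flox and from 157 to 163 in KO for dendritic cells (mostly Itgax), from 12.9 to 14.8 and from 8.55 to 9.07 for B cells, and from 85.5 to 91.1 and from 65.8 to 68.7 for endothelial cells. The erythroid sum, from 436 to 466 and from 321 to 338 CPM, was nearly all Tfrc, with Hbb-bs at 0. The B cell count was 1 without flox library 1, KO library 1 or KO library 2. No adipocyte marker had enough counts to be tested. The part of these cells in the results was not tested.

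**Figure D3:**
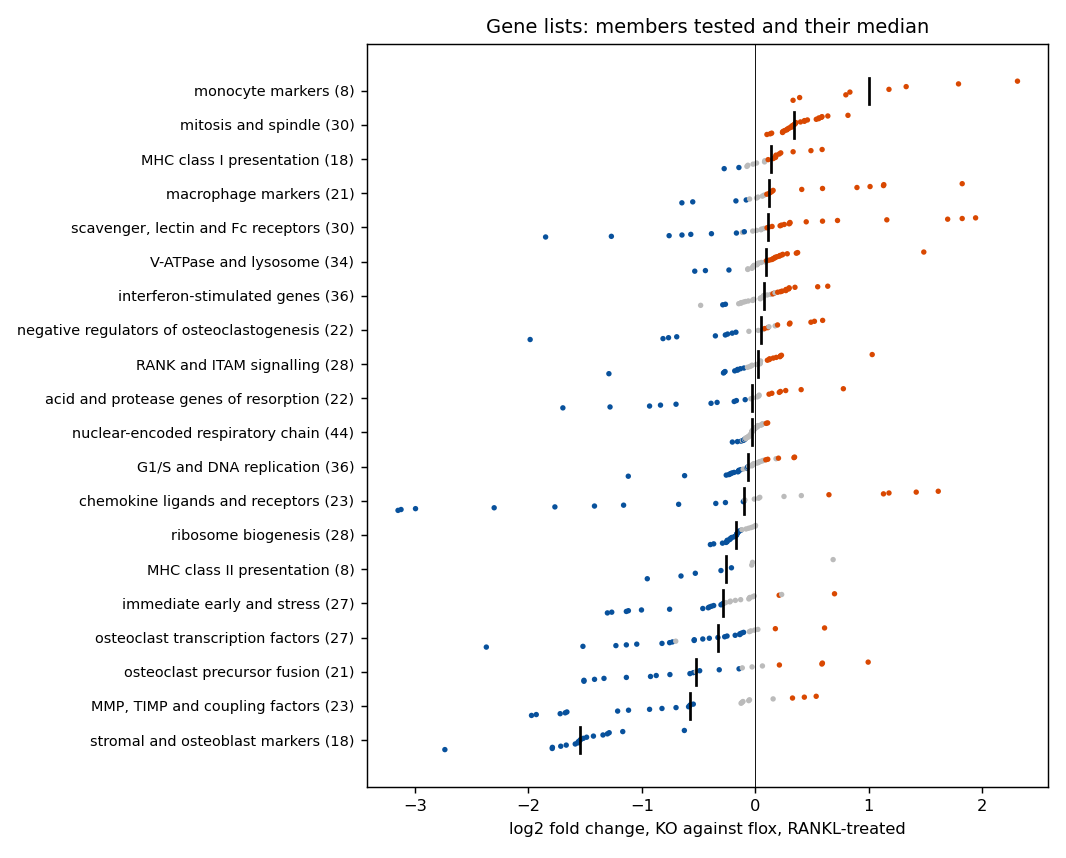
Each row is a gene list, with the number of tested members in brackets, and each point a member's log2 fold change of KO against flox in RANKL-treated cells. Orange points were called higher, blue lower and gray not called, and the black bar is the median, which runs from -1.54 for stromal and osteoblast markers to 1.01 for monocyte markers.

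Chemokine genes divided by family member. Of 23 tested, 12 were called lower, 5 higher and 6 were not called. Ccl2, the main monocyte attractant, rose from 25.6, 26.2 and 28.01 to 78.4, 86.6 and 78.7 CPM (1.61, edgeR adjusted p = 2.08e-05), and the related Ccl7 from 2.21, 1.83 and 2.34 to 5.74, 5.69 and 5.67 (1.42). The receptor gene Ccr1 fell from 25.9, 24.6 and 28.7 to 8.56, 6.73 and 8.03 CPM (-1.77), further than in M-CSF alone (-0.56; difference -1.20, edgeR adjusted p = 5.50e-11). Its ligand Ccl9, a chemokine of osteoclasts named after its values were seen, fell from 679, 665 and 684 to 302, 286 and 319 CPM (-1.16). Cxcl2 (-2.30) and Ccr3 (-1.42) fell at levels under 7 CPM.

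Matrix proteases, their inhibitors and factors that pass from osteoclasts to osteoblasts were lower too, with 14 of 23 called lower, 3 higher and 6 not called (median -0.58). In M-CSF alone 15 were called lower and 4 higher (median -0.35), and the difference was not called for 16. The macrophage elastase gene Mmp12 went from 318, 319 and 335 to 145, 152 and 151 CPM (-1.12, SE 0.032, edgeR adjusted p = 3.38e-31) and the collagenase gene Mmp8 from 29.01, 28.3 and 28.01 to 6.51, 8.71 and 7.12 (-1.93). The protease inhibitor gene Timp1 went from 6.45, 6.57 and 6.58 to 1.998, 1.78 and 2.16 CPM (-1.72). The growth factor gene Pdgfb, which preosteoclasts secrete, went from 237, 234 and 236 to 155, 154 and 149 CPM (-0.63). No KO library reached the level of a flox library for any of these 4.

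More interferon-stimulated genes were called higher than lower. Of 36, 14 were called higher, 2 lower and 20 were not called (median 0.07). The count of 2 was 1 without KO library 1 and 4 without flox library 3 or flox M-CSF library 1. In M-CSF alone none was called higher and 19 lower. The difference between the genotype effects was called above 0 for 20 of 36 and below 0 for none, beside the same 12.3% and 9.53% of all genes. Mx1, an antiviral GTPase gene, went from 3.47, 4.15 and 3.61 to 5.33, 6.48 and 5.62 CPM with RANKL (0.64) and from 12.8 to 10.5 without (-0.28). Ifit2, which binds viral RNA, went from 13.5, 12.6 and 13.6 to 17.7, 16.2 and 16.8 CPM (0.35) and in M-CSF alone fell (-0.27). Cmpk2 (0.29) and Trim30a (0.29) rose as well.

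Antigen presentation genes went separate ways by class. Of the MHC class I list 10 of 18 were called higher and 2 lower, by small amounts such as 0.21 for H2-D1, from 1486, 1481 and 1461 to 1736, 1682 and 1704 CPM. Class I genes are near copies of each other, so their reads could be divided unevenly. Nlrc5, the transactivator of class I genes, rose from 21.9, 23.9 and 20.3 to 30.3, 30.03 and 32.3 CPM (0.49). Of the MHC class II list 5 of 8 were called lower and none higher, led by the invariant chain gene Cd74, from 147, 143 and 139 to 75.9, 75.2 and 71.1 CPM (-0.95), and the same 5 were called lower in M-CSF alone, with no difference between the conditions called.

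Cell cycle genes split by phase. All 30 mitosis and spindle genes were called higher in KO (median 0.34). Ccnb2, a mitotic cyclin gene, went from 78.04, 78.96 and 83.3 to 143, 137 and 142 CPM (0.82, edgeR adjusted p = 4.26e-09), Cdc20, which triggers anaphase, from 82.3, 79.7 and 84.9 to 131, 125 and 129 (0.64), and the kinase gene Plk1 from 117, 113 and 116 to 179, 169.6 and 168 (0.58). All 30 were called higher in M-CSF alone as well, by more (median 0.77), and for all 30 the difference was called below 0. Of the G1/S and DNA replication genes, 5 of 36 were called higher and 15 lower. Cdkn1a, the p21 inhibitor of cyclin kinases, fell from 568, 542 and 564 to 370.4, 352 and 364 CPM (-0.62, edgeR adjusted p = 1.82e-18).

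Ribosome biogenesis genes fell by small amounts: 21 of 28 were called lower, none higher and 7 were not called (median -0.17). Nop2, a ribosomal RNA methyltransferase gene, went from 186, 183 and 178 to 139.8, 143 and 141 CPM (-0.37) and Rrp9, a nucleolar RNA-binding protein gene, from 64.3, 64.8 and 65.9 to 50.2, 48.6 and 49.3 (-0.40). The nuclear genes of the respiratory chain were mostly not called, 36 of 44, with 2 higher and 6 lower. The count of 6 was 2 without flox library 1 and 3 without KO library 1 or KO library 3, and the count of 2 was 1 without flox library 1, flox library 2, KO library 1 or KO library 2. In M-CSF alone 25 of the 44 were called higher and none lower, and the difference was called below 0 for 20, or for 31 without flox M-CSF library 1. Of 34 proton pump and lysosome genes 16 were called higher and 3 lower (median 0.09). Those called higher included the cathepsin gene Ctsb, from 5645, 5679.5 and 5672 to 6822, 6909.5 and 6923 CPM (0.28), and progranulin, Grn, from 1635, 1604 and 1619.8 to 2088, 2073 and 2079 (0.36).

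Genes of metabolism, the subject of the series title, changed by modest amounts in RANKL-treated cells. Of 32 genes of PPARG and lipid handling, 9 were called lower, 7 higher and 16 were not called. In M-CSF alone 15 were called lower and 5 higher. The fatty acid transporter gene Cd36 went from 578, 592 and 610.1 to 396, 396 and 408 CPM (-0.57), lipoprotein lipase, Lpl, from 3739.9, 3751 and 3835 to 2889.7, 2824 and 2885 (-0.40), and Rxra, the partner receptor of PPARG, rose from 63.97, 66.96 and 66.1 to 103, 109 and 109 (0.70). Of the cholesterol list 9 of 30 were called lower and 4 higher. In M-CSF alone 20 were called lower and 3 higher, and the difference was called above 0 for 12 and below 0 for 4. Apoe, the lipid carrier, fell from 1214, 1148 and 1198 to 741, 763 and 741 CPM (-0.67, SE 0.029, edgeR adjusted p = 3.60e-24).

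Antioxidant genes controlled by Nrf2 fell in 10 of 21 cases and rose in 3. In M-CSF alone 12 fell and 3 rose, and the difference was called above 0 for 4 and below 0 for 5. The cystine transporter gene Slc7a11 went from 25.3, 24.99 and 24.2 to 6.97, 6.33 and 6.02 CPM, a 3.85-fold fall (-1.95, SE 0.077, edgeR adjusted p = 3.14e-26), and further than in M-CSF alone (-0.99). The quinone reductase gene Nqo1 went from 40.5, 38.6 and 41.1 to 16.7, 19.05 and 21.1 CPM (-1.08) and thioredoxin reductase, Txnrd1, from 1008, 1028 and 1026 to 655, 649 and 659 (-0.64).

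Of 15 genes for catecholamine uptake, breakdown and receptors only 5 were tested, and Slc6a2 and Th had no counts in the 6 libraries. Maoa, which breaks down catecholamines, rose from 22.1, 22.3 and 22.5 to 30.5, 29.8 and 30.7 CPM (0.45), the receptor gene Adra1a rose from 16.5, 19.6 and 16.3 to 24.5, 26.5 and 24.6 (0.53), and the serotonin transporter gene Slc6a4 fell from 7.22, 6.77 and 9.01 to 4.56, 5.34 and 5.42 (-0.58). Of the secreted metabolic factors, Vegfa rose from 8.84, 8.94 and 8.82 to 14.96, 17.2 and 15.8 CPM (0.85).

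Of 32 Polycomb and Trithorax genes 7 were called higher, 5 lower and 20 were not called, shares near those of all genes tested. Cbx6, a Polycomb chromodomain gene, rose from 22.8, 20.9 and 21.4 to 37.6, 38.7 and 38.7 CPM (0.82), and Bmi1, a subunit of the complex that ubiquitinates H2A, fell from 41.9, 43.01 and 48.4 to 29.2, 29.2 and 28.1 (-0.62).

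The genotype effect with RANKL was set beside that in M-CSF alone, which shares no library with it. In M-CSF alone 2513 genes (19.3%) were called higher and 2690 (20.6%) lower, 39.9% in all. Of the genes called higher with RANKL, 1436 were also higher without it, 51.5% of the first list and 57.1% of the second. Of those called lower, 1413 were also lower without it, 54.5% and 52.5%. Across the 13030 genes the 2 sets of log2 fold changes had a Pearson r of 0.66 and a Spearman rho of 0.49. Genes are not independent replicates, and the conditions share the genotypes and possibly the animals.

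The difference of the 2 effects was called for 2849 genes (21.9%), 1607 above 0 and 1242 below, so that 56.4% of calls were above 0. Scaled by library size alone, the counts were 1312 and 1716, 43.3% above 0. Of the 195 genes at least 2-fold higher with RANKL, 128 were called higher without it and 5 lower, and the effect was called larger with RANKL for 67. Of the 355 at least 2-fold lower, 296 were called lower without RANKL and 1 higher. The effect was called larger with RANKL for 41 of these and smaller for 12.

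Among genes of at least 5 CPM, the largest differences below 0, where KO fell further with RANKL, were those of Plxna4 (-2.40), St14 (-1.79), Jdp2 (-1.62), Oaf (-1.21) and Ccr1 (-1.20). St14, a membrane serine protease gene, fell with RANKL from 19.9, 21.1 and 20.1 to 10.6, 10.5 and 9.73 CPM and rose without it from 6.22 to 10.9. The largest above 0 were Tmem26 (1.97), Ch25h (1.90), Bcar1 (1.88), Cav1 (1.86) and Tmem176b (1.78). The caveolin gene Cav1 fell from 497 to 406 CPM with RANKL and from 51.6 to 11.6 without it. Ch25h, cholesterol 25-hydroxylase, went from 6.86, 8 and 7.41 to 17.8, 19.1 and 18.6 CPM with RANKL and fell without it (-0.58).

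**Figure D4:**
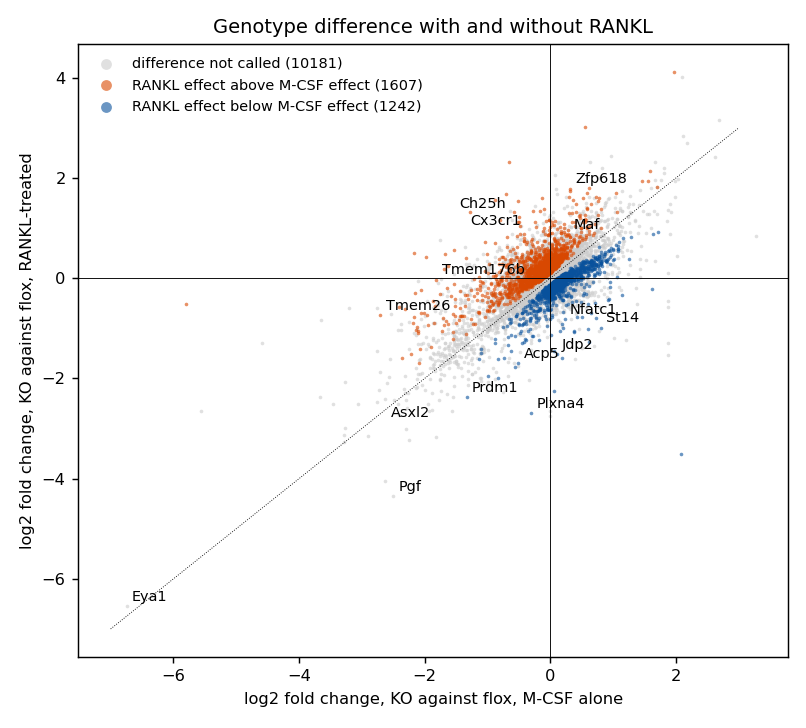
Each point is a gene, placed by its log2 fold change of KO against flox in M-CSF alone (x axis) and with RANKL (y axis). Blue genes (1242) had an effect with RANKL called below that without, orange genes (1607) above, and the dotted line marks equal effects. Plxna4, Jdp2, St14 and Nfatc1 lie below the line and Maf, Cx3cr1 and Ch25h above it, while Asxl2, Eya1 and Pgf were not called different.

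Genes near the modified loci were called about as often as the rest. Within 5 Mb of Asxl2, 12 of 26 tested genes (46.2%) were called with RANKL, and within 5 Mb of Lyz2, 17 of 40 (42.5%), against 41.3% of all genes tested.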

How the data were processed

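Gene expression was measured by RNA-seq of oligo-dT selected RNA in 12 mouse libraries, 3 per group, grouped by their titles. The members and gene lists were chosen with earlier results of these data known.

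Per the file headers, the authors deposited raw read counts per gene, summed over exons with featureCounts 1.4.5-p1 and Ensembl release 76 and without regard to strand, so that antisense and overlapping genes cannot be told apart. The submitters' processing notes name STAR 2.0.4b, Subread, featureCounts 1.45 and GRCm38. Alignment settings, not given in the sources used here, could move reads between near copies of genes. Each file holds 41388 genes, and every counted row named a gene ID.

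Counts were fitted with edgeR 4.0.16 (R 4.3.3): TMM scaling, a filter on low counts by group (13030 genes kept), the robust quasi-likelihood F test over all 12 libraries with 4 group means, and Benjamini-Hochberg adjustment over all genes tested, called at an adjusted p under 0.05. The same fit gave the genotype difference in M-CSF alone and the difference of the 2 genotype effects. The SE of a log2 fold change is its size divided by the square root of F. Libraries held 18489873 to 21042792 counts with RANKL, where 3 counts are 0.135 to 0.154 CPM. All pairs of replicates differed by more than counting noise (chi-square per degree of freedom 1.23 to 5.05). Counts were simulated for the RANKL comparison (12719 genes), with 49 or 50 genes changed at each fold. Of genes changed 1.25-fold 66.0% were recovered, 85.7% at 1.5-fold, 96.0% at 2-fold and 100% at 4-fold. There were 9 false calls, 4.95% of the calls in that simulation. It held far fewer changed genes than were called in the data and no effect of RANKL, so these rates may not hold there.

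Named genes were Asxl2 and Lyz2. To these were added the top 15 called genes in each direction by log2 fold change among those of at least 5 CPM in the higher group whose libraries do not overlap, without mitochondrial, ribosomal protein, pseudogene and unnamed models. The rule also took the 8 and 8 of at least 100 CPM, again only where libraries do not overlap. Without that demand it took the 5 and 5 with the largest difference of effects, and up to 6 called members of each list of at least 1 CPM. Genes outside the rule are marked where they appear. Some genes that the rule named are not reported here. Alternatives were library size alone, RLE factors, no filter, a stricter filter of 1 CPM in 3 libraries, DESeq2 1.42.0, the 6 libraries alone, the replicate number as a block, and each library left out.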

Additional observations from a re-analysis of the deposited data

Results flagged for a closer look

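Of the 231 named genes, 115 had a genotype effect called different with RANKL and without it by the edgeR test of the difference. The 32 below either differed by at least 2-fold between the 2 effects or were called in opposite directions. Values are the effect with RANKL minus that in M-CSF alone, on the log2 scale.

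Opposite calls were found for 13 genes. St14 (-1.79) and Nfatc1 (-1.05) were lower in KO with RANKL and higher without it. The other 11 were higher with RANKL and lower without it: Lyz2 (0.29), the mitochondrial iron importer gene Slc25a37 (0.47), mt-Nd5 (0.56), Ifit2 (0.62), Treml4 (0.78), the cholesterol exporter gene Abca1 (0.83), Mx1 (0.92), Nupr1 (1.16), Vcan (1.21), Cx3cr1 (1.37) and Ch25h (1.90). Abca1 and Ch25h act on cholesterol, Ifit2 and Mx1 respond to interferon, and Treml4, Vcan and Cx3cr1 mark monocytes or macrophages.

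A further 9 genes had an effect at least 2-fold further down with RANKL. They were Plxna4 (-2.40), Gata2 (-1.79), Jdp2 (-1.62), Oaf (-1.21), Ccr1 (-1.20), Acp5 (-1.19), Socs3 (-1.15), Bhlhe40 (-1.05) and Prdm1 (-1.04). Jdp2, Bhlhe40 and Prdm1 are transcription factors on the osteoclast list, and Acp5 is the acid phosphatase marker.

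The remaining 10 had an effect at least 2-fold further up. Of these Maf (1.05), Lyl1 (1.13), Tlr9 (1.18), Angptl7 (1.20) and Zfp618 (1.47) rose with RANKL. Il10 (1.32), Cav1 (1.86) and Tmem26 (1.97) fell with RANKL and fell further without it, while Tmem176b (1.78) and Bcar1 (1.88) were not called with RANKL. Il10 was listed at 1.22 CPM in flox, so its value rests on few reads.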

How the results depend on the processing

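All 140 alternative counts of called genes stayed within 1.5 times the main count, and Asxl2 and Lyz2 kept direction and call in each of 13 alternatives. With RANKL 2787 genes were called higher and 2595 lower. DESeq2 gave 2093 and 2082, library size alone 2825 and 2547, and the 6 RANKL libraries alone 2897 and 2905. Leaving out 1 RANKL library gave 2425 to 2485 and 2272 to 2380, and without KO library 1, which stood apart, 2460 and 2287. For changes of at least 2-fold (195 and 355), leaving out 1 RANKL library gave 180 to 207 and 353 to 370, DESeq2 165 and 333, the 6 RANKL libraries alone 158 and 320, the stricter filter 147 and 277, and no filter 244 and 434.

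Same-numbered libraries did not deviate together (correlations -0.0353 to 0.0397). Counting noise also enters these deviations, so low correlations cannot show whether the numbers pair the libraries. With the replicate block 2766 were called higher and 2566 lower with RANKL, and the difference of effects was called above 0 for 1583 and below 0 for 1201 (1607 and 1242 without it). That difference ranged from 1371 to 1661 above 0 and from 1043 to 1628 below 0 when 1 library was left out, the last without flox M-CSF library 1. In M-CSF alone 48.3% of calls were upward, and 59.9% (3334 against 2228) with library size alone.

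Of the 229 named genes called with RANKL, 212 kept call and direction in every setting, 17 lost the call in at least 1 and none reversed. The 17 included S100a8, Il10, H2-Aa, Syt7, Ccnd1, Hp and mt-Nd5. Of 546 list medians, 44 moved by more than their spread, and those of RANK and ITAM signalling, the negative regulators, iron, secreted factors and some small cell type lists changed sign in at least 1 alternative and are not printed. Some small list counts with RANKL moved by over 1.5 times. The 6 RANKL libraries alone gave 10 respiratory chain genes lower (6 in all libraries, 3 with DESeq2), 5 lysosomal genes lower (3), 4 interferon-stimulated genes lower (2) and 1 platelet marker lower (2). No filter on low counts added 2 monocyte markers called lower. In M-CSF alone, its 6 libraries gave 3 macrophage markers higher (5). Depth limits genes with few counts, such as Calcr and Oscar, which were not tested.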

Other observations

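Immediate early and stress genes, which cells switch on within minutes of a signal, were mostly lower in KO cells with RANKL. Of 27 tested, 14 were called lower, 2 higher and 11 were not called (median -0.28), beside 19.9% of all genes called lower. The count of 2 was 1 when any of flox libraries 2 and 3 or KO libraries 1 and 2 was left out. In M-CSF alone 16 were called lower and 1 higher (median -0.38), and the difference was not called for 18. Dusp5, a phosphatase gene that limits ERK signalling, went from 29.4, 28.4 and 29.8 CPM in flox to 12.04, 11.97 and 11.4 in KO (-1.30, edgeR adjusted p = 3.33e-21). The growth arrest gene Gadd45b went from 14.9, 15.9 and 14.9 to 5.12, 6.23 and 7.62 CPM (-1.27), and Ier3 from 7.94, 8.44 and 8.87 to 4.41, 5.29 and 2.86 (-1.004). Klf2 rose from 10.3, 10.5 and 10.4 to 16.6, 18.6 and 15.4 CPM (0.70). The groups of these 4 genes did not overlap.

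Inflammatory mediators went in both directions, with 7 of 20 called higher and 8 lower. Both cyclooxygenase genes, whose products start prostaglandin synthesis, fell: Ptgs1 from 8.62, 7.704 and 7.94 to 3.07, 2.97 and 3.01 CPM (-1.42, edgeR adjusted p = 6.72e-14) and Ptgs2 from 3.52, 4.25 and 3.56 to 0.973, 0.841 and 1.254 (-1.87). Saa3, an acute phase gene, rose from 0.586, 0.988 and 0.779 to 3.02, 3.02 and 3.16 CPM (1.97). Il1b, Il6 and Il12b had too few counts to be tested. Of the genes linked to alternative activation by interleukin 4, 9 of 16 were called lower and 3 higher (median -0.30). Fibronectin, Fn1, went from 56.98, 52.6 and 51.1 to 34.9, 34.04 and 38.02 CPM (-0.59), whereas Tgm2, a transglutaminase gene used as a marker of that state, rose from 85.7, 82.5 and 85.6 to 170.2, 167 and 169.8 (0.998), with 21.8% of its exonic bases shared with another gene model.

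Among metabolic lists, 11 of 25 glycolysis and hypoxia genes were called lower and 4 higher (median -0.09). The largest fall was that of Aldoc, an aldolase gene, from 27.1, 25.8 and 24.9 to 18.4, 17.3 and 18.9 CPM (-0.51). Tfrc, the transferrin receptor that imports iron, went from 414, 424 and 443 to 319.8, 303 and 309 CPM (-0.46, edgeR adjusted p = 1.48e-11). Of the amino acid supply and ATF4 target list 8 of 25 were called higher and 8 lower. Vldlr, a lipoprotein receptor gene on that list, rose from 0.767, 0.7901 and 0.536 to 2.31, 1.93 and 1.76 CPM (1.504). Among secreted factors Metrnl, a meteorin-like protein studied in fat tissue, rose from 91.7, 94.9 and 93.4 to 139, 133 and 132 CPM (0.53), while Vegfc fell from 25.04, 25.8 and 28.2 to 15.3, 14.9 and 15.2 (-0.80).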
